A study of Homo sapiens with 18 samples.

Results

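The segment of chromosome 8 around MYC, 126000000 to 131500000 in the hg19 build, held 424 of the 115087 regions in the deposited ATAC-seq table. Its members were chosen by position, as every region that started between those bounds. The regions had themselves been selected on measured values, since the table lists places where peaks were called in the same libraries, and the segment was picked with earlier results of these data known, in which its level differed between lines. Levels and differences between lines are therefore descriptions, counts of members past a threshold between lines are printed beside those of all regions with nothing read from them, and the changes with cetuximab carry the test fitted over all regions.

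MYC encodes a transcription factor that drives growth and proliferation and is often present in extra copies in squamous carcinoma. It lies alone in a long gene-poor interval, and distal regulatory elements on either side of it are known to act on its promoter in many epithelia. PVT1 and CCDC26, the long non-coding RNA genes downstream of MYC, span much of that interval. ATAC-seq marks open chromatin by the insertion of adapters by the Tn5 transposase. Its signal rises with accessibility and also with the number of DNA copies, which was not measured here, so accessibility and copy number cannot be told apart between lines. Nor can fewer open cells be told apart from less signal per cell in such bulk samples.

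The libraries came from 3 established lines of head and neck squamous cell carcinoma, SCC1, SCC6 and SCC25. Cells were given cetuximab, an antibody that blocks EGFR, at 100 nM, or PBS alone, and were collected after 5 days. The series had 3 libraries for each line and treatment, and 17 were used, since SCC1 PBS replicate 2 was not analysed here and 2 SCC1 PBS libraries remained. No label ties replicates to separate cultures, so the p-values measure the spread between these libraries, which may be technical. Each line stands for 1 tumour, and no normal cells were measured.

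Reads in regions ran from 2194851 to 15017130 per library. Values below are the deposited signal, a normalised read count in which 1 read was worth between 0.331 and 1.95 and an empty region was set to 1 read. The start site of EGFR, the cetuximab target, had a mean PBS signal of 117 in SCC1, 149 in SCC6 and 118 in SCC25, and that of CDH1, which encodes the epithelial adhesion protein E-cadherin, had 77.7, 79.8 and 58.8. The squamous keratin gene KRT14 had 38.8 in SCC1 and 35.8 in SCC25 but 1.66 in SCC6, and TP63, the squamous lineage factor, had 37.3, 18.5 and 36.4. The leukocyte gene PTPRC and the endothelial gene PECAM1 had no region at a start site.

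Of the 424 members, 29 were start site regions, within 1000 bp of a start of a protein-coding or long non-coding RNA gene in GENCODE release 44, and 395 were distal. The segment held 7.71 regions per 100 kb, against 4.26 over chromosome 8 and 3.79 over the genome. The densest intervals were those of SQLE to TRIB1 (10.9 per 100 kb), MYC and PVT1 (10.2) and GSDMC to ASAP1 (10.7). The long intervals between TRIB1 and MYC and between PVT1 and GSDMC held 6.84 and 5.96 per 100 kb, and 151 and 92 distal members. A peak was called in at least 2 libraries of the line at 350 members in SCC6, 236 in SCC25 and 170 in SCC1, and in every library at 37 members. In all 3 lines together 120 members (28.3%) had such peaks, against 20.7% of all regions, and 141 (33.3%) had them in SCC6 alone, against 34.9%. The part of sequencing depth in these counts was not tested.

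At the left bound, the last region outside was the start site of ZNF572, with mean PBS signals of 132 in SCC1, 320 in SCC6 and 77.9 in SCC25, and the first member was the SQLE start site, with 416, 907 and 292. At the right bound, the last member, within ASAP1, had 271, 419 and 122, and the next region, in the same gene, had 61.8, 70.3 and 177.

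The segment had its highest signal in SCC6. It took 1.06%, 1.03% and 1.04% of the signal in regions in the SCC6 PBS libraries, 0.722% and 0.707% in SCC1 and 0.496%, 0.490% and 0.497% in SCC25. The 3 lines did not overlap, and the order was the same for distal members alone, with 0.848% ± 0.0112 (SD, n = 3) in SCC6, 0.593% ± 0.00511 (n = 2) in SCC1 and 0.416% ± 0.00500 (n = 3) in SCC25. The share of all called peaks followed another order, with 0.517% ± 0.00513 in SCC1, 0.474% ± 0.0243 in SCC6 and 0.393% ± 0.0364 in SCC25.

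The excess in SCC6 ran along most of the segment. Over 362 distal members the median log2 difference of SCC6 from SCC1 was 0.65, against -0.11 over all distal regions, and 71.8% were on the positive side, against 47.3%. Over the 29 start site members it was 0.93, against 0.03. In the 5.5 Mb before and the 5.5 Mb after the segment the distal medians were -0.23 and 0.09, and over the rest of chromosome 8 the median was -0.32. SCC25 lay below SCC1 by a distal median of -0.33, against 0.02 over all distal regions, and below SCC6 by -1.14, against 0.24. At an adjusted p under 0.05, 204 of 391 members were higher and 69 lower in SCC6 than in SCC1, against 30.7% and 30.5% of all regions. In SCC25, 81 were higher and 164 lower than in SCC1 (28.2% and 23.1% of all regions), and 66 higher and 249 lower than in SCC6 (36.7% and 32.1%). Nothing is read from these counts, because the segment was picked with the levels of the lines known.

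The difference was uneven. The median SCC6 minus SCC1 difference of distal members was 1.62 between GSDMC and ASAP1 and 1.01 between SQLE and TRIB1, but 0.36 across MYC and PVT1. In the 500 kb upstream of MYC it was -0.67, the only bin of this size below -0.11. There the mean PBS signals summed over 33 distal members to 3661 in SCC1, 2818 in SCC6 and 2282 in SCC25. In the neighbouring bin, 1000 to 500 kb upstream, the sums over 40 members were 3024, 2592 and 1523, so that SCC1 was the highest line in both bins. In the last bin, 2500 to 3000 kb downstream, the same sums over 24 members were 1328, 4090 and 1260.

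**Figure D1:**
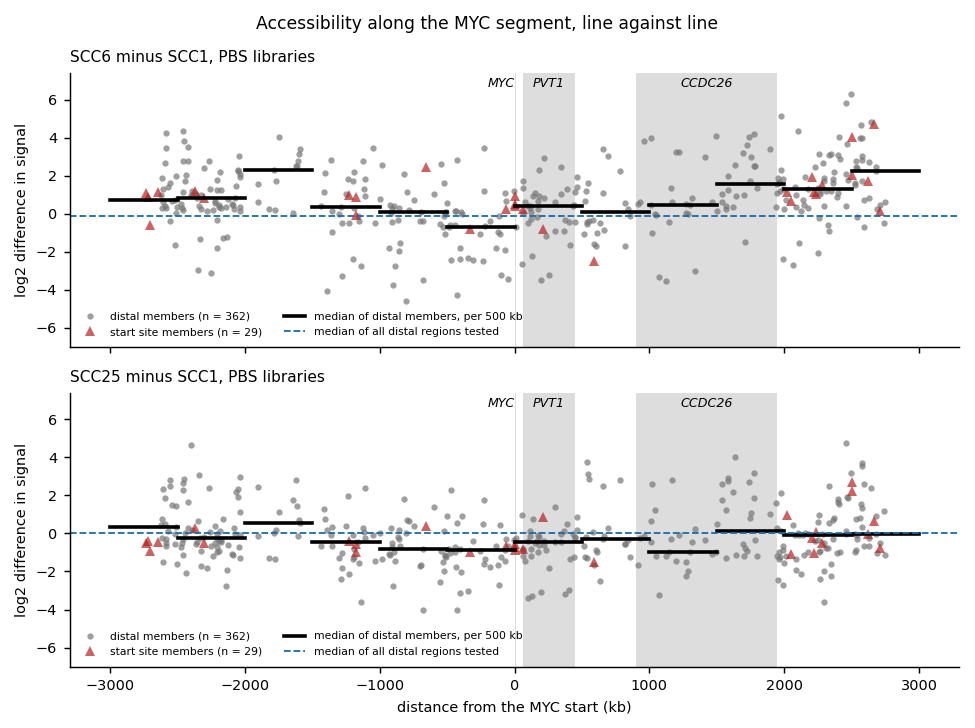
Log2 difference in deposited signal between PBS libraries of 2 lines at each member tested, against the distance from the MYC start in kb. Grey circles are 362 distal members, red triangles 29 start site members, black bars the median of distal members per 500 kb, and the dashed line the median of all distal regions. The SCC6 bars lie above the dashed line except in the 500 kb before MYC, and 9 of the 12 SCC25 bars lie below 0.

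Members without a called peak in any library of a line were also above the background of that line. Their signal per kb was 1.67 to 2.07 times that of other distal regions without peaks in the SCC6 libraries (45 members), 1.87 to 2.00 times in SCC25 (148 members) and 1.38 to 1.62 times in SCC1 (209 members). SCC25, the line with the lowest share of signal in the segment, was thus not the lowest in this ratio. The 5.5 Mb before and after the segment shared part of the rise. In SCC1 PBS libraries such distal regions had 55.4 per kb in the segment, 52.0 and 48.6 in these flanks and 35.2 overall. The same values were 46.2, 29.5, 38.9 and 23.1 in SCC6 and 41.0, 31.3, 36.8 and 21.2 in SCC25. The part of copy number was not tested.

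Within 1000 bp of a MYC transcript start lay 3 members, each overlapping a MYC exon and an intron of the antisense transcript CASC11. At chr8:128748055-128748703, the one with the highest mean signal, the PBS libraries had 204 and 212 in SCC1, 319, 286 and 298 in SCC6 and 145, 110 and 122 in SCC25. The lines did not overlap. At this member the log2 difference of SCC25 from SCC1 was -0.73, and it ran from -1.21 to -0.02 over 17 other settings. With cetuximab the same member had 170, 171 and 216 in SCC1, 259, 258 and 282 in SCC6 and 167, 145 and 119 in SCC25. The changes on the log2(signal + 1) scale, used for every change below, were -0.17 ± 0.20 (SE) in SCC1, -0.18 ± 0.10 in SCC6 and 0.18 ± 0.16 in SCC25, with adjusted p of 0.652, 0.179 and 0.657 (limma, Benjamini-Hochberg over all regions tested). In SCC6 every treated library lay below every PBS library, and in the other lines the groups overlapped. The SCC6 change was -0.36 and called with median centring (adjusted p = 0.00570) and 0.09 and not called within GC bins (adjusted p = 0.635).

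The member upstream of it, chr8:128747384-128747760, was lower after cetuximab in SCC6, with 191, 220 and 234 against 271, 261 and 256. Its log2 change was -0.29 ± 0.11 (adjusted p = 0.0393), and -0.07 (adjusted p = 0.684) when each library was centred within bins of GC content. It was called under 6 of 14 other settings. The third, chr8:128749745-128750160, had 156, 153 and 150 in SCC6 PBS and 183, 186 and 173 after cetuximab, with a log2 change of 0.24 ± 0.13 and an adjusted p of 0.154, and 0.50 with an adjusted p of 0.0231 within GC bins. In this last member the treated libraries lay above the PBS libraries, and in the other two below them.

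At the PVT1 start site, 59.1 kb downstream, PBS signals were 122 and 114 in SCC1, 130, 141 and 150 in SCC6 and 69.7, 83.7 and 51.7 in SCC25. After cetuximab they were 105, 87.6 and 171 in SCC1, 110, 120 and 146 in SCC6 and 97.0, 92.5 and 85 in SCC25. SCC25 was the lowest line with PBS, the SCC1 and SCC6 libraries did not overlap with PBS but did after cetuximab, and no change passed the test (adjusted p of 0.973, 0.382 and 0.329). CCDC26 had no start site member.

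Of the other 14 genes in the fixed list with a start in the annotation, 10 had a start site member, and ZNF572, CASC8, CASC11 and POU5F1B had none. CYRIB, whose product binds RAC1 and restrains actin remodelling, had the strongest start site of the segment in SCC6, with 1681, 1627 and 1669 in PBS libraries, against 436 and 418 in SCC1 and 366, 356 and 370 in SCC25. LRATD2 had 1260, 1227 and 1276 in SCC6, 730 and 648 in SCC1 and 362, 361 and 326 in SCC25. TRIB1, which encodes a pseudokinase adaptor of the COP1 ubiquitin ligase, had 1021, 916 and 951 in SCC6, 563 and 497 in SCC1 and 387, 367 and 368 in SCC25. SQLE, an enzyme of cholesterol synthesis, followed with means of 907, 416 and 292 in the same order. SCC6 stood above the other lines at each of these 4 start sites.

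At WASHC5, a subunit of the WASH complex of endosomal actin assembly, SCC1 was the highest line instead, with 537 and 544 against 333 to 377 in SCC6 and 266 to 330 in SCC25. At CCAT2, a non-coding RNA gene within CASC8, SCC1 had 376 and 339 in PBS libraries, and SCC6 and SCC25 overlapped, at 190 to 233 and 158 to 200. The member counted for PCAT1, 1.18 Mb upstream of MYC, also overlapped an LRATD2 exon and lay 68 bp from the LRATD2 start, so the 2 genes cannot be told apart there. It had overlapping SCC1 and SCC6 libraries (174 to 189 and 165 to 179). Start sites of NSMCE2, a SUMO ligase of the SMC5/6 complex, GSDMC, a gasdermin, and ASAP1, an ARF GTPase activating protein, had SCC6 means of 264, 323 and 262 and SCC25 means of 84.9, 93.1 and 134.

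Called changes at start sites were most frequent in SCC6. In SCC1, 0 of 28 tested were higher and 1 lower, against 11.6% and 2.61% of all start site regions, and at an unadjusted p under 0.05 limma gave 0 and 5, while edgeR called 0 and 1 and DESeq2 0 in either direction. In SCC6, 6 of 29 were higher and 8 lower, against 6.48% and 11.2%, and edgeR called 6 and 9 and DESeq2 4 and 9. In SCC25, 0 of 29 were called in either direction, against 0.0209% and 0.0418%. An unadjusted p under 0.05 in limma was reached by 3 higher and 4 lower, and edgeR and DESeq2 called 0. Shares of all start site regions at the unadjusted threshold are not given here, so nothing is read from those counts. The median log2 change over start site members was -0.04 in SCC1 and -0.11 in SCC6, beside 0.14 and -0.10 over all start site regions.

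In SCC6, 3 of the 4 strong start sites fell by small amounts, and SQLE had a change of -0.06 ± 0.06 (adjusted p = 0.475). LRATD2 went to 1006, 959 and 933, a log2 change of -0.38 ± 0.05 (adjusted p = 2.7e-07). TRIB1 went to 700, 784 and 803 (-0.34 ± 0.06, adjusted p = 4.0e-05) and CYRIB to 1459, 1457 and 1328 (-0.23 ± 0.05, adjusted p = 0.000170). In each the treated libraries lay wholly below the PBS libraries. Centred within GC bins, a setting added after the data had been seen, the 3 changes became -0.07, 0.01 and 0.07, none of which passed the test. GSDMC, from 298, 337 and 334 to 234, 233 and 247, kept a called fall in that setting (-0.44 ± 0.10, adjusted p = 0.000677, and -0.61 within GC bins).

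The CCAT2 start site moved the other way in SCC6, from 190, 197 and 233 to 380, 410 and 371, which is a log2 change of 0.91 ± 0.10 (adjusted p = 9.1e-10). It had 317, 329 and 349 in SCC1 and 172, 210 and 227 in SCC25 after cetuximab, and its changes there were -0.11 ± 0.16 and 0.15 ± 0.14 (adjusted p of 0.743 and 0.687). After treatment the SCC6 libraries thus lay above those of SCC1, which had been the highest line with PBS. A rise was also called at the start of the non-coding gene ENSG00000286034, downstream of PVT1, which was chosen after its values were seen. It rose in SCC6 from at most 82.2 to 146, 162 and 168, by 1.24 ± 0.17 (adjusted p = 1.5e-07), while SCC1 had 331 to 410.

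**Figure D2:**
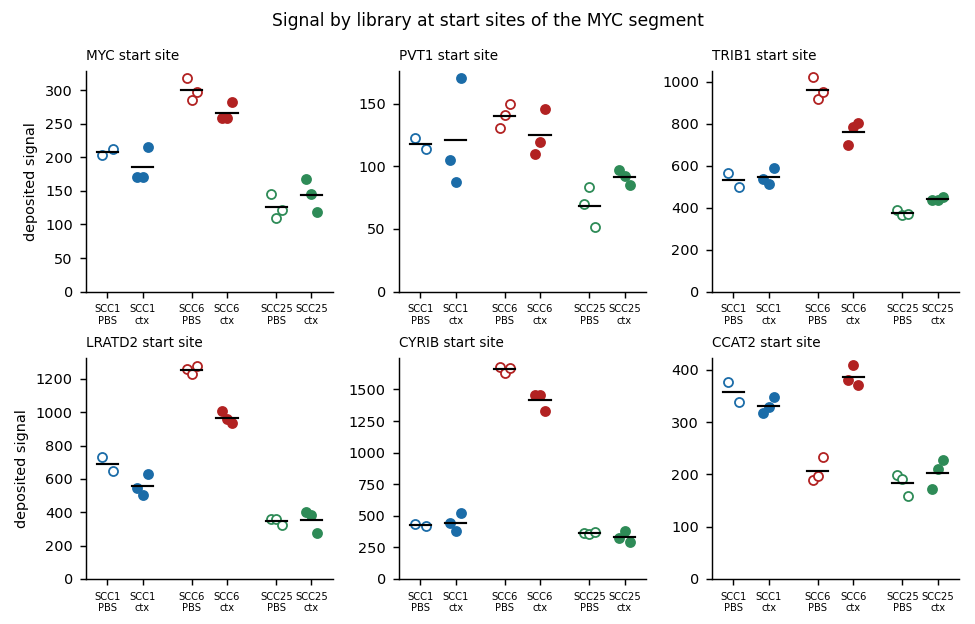
Deposited signal in each library at the start sites of MYC, PVT1, TRIB1, LRATD2, CYRIB and CCAT2, with PBS libraries as open and cetuximab libraries (ctx) as filled circles and the group mean as a bar. SCC6 lies highest with PBS in every panel except CCAT2, where it rises from 190 to 233 up to 371 to 410 with cetuximab.

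One distal member was strong in all 3 lines. The region at chr8:128680273-128681463, 66.8 kb upstream of MYC in an exon of ENSG00000286010, was among the 3 highest distal members of each line. It had 526 and 517 in SCC1 PBS, 849, 809 and 859 in SCC6 and 425 in each SCC25 library. After cetuximab it fell in SCC1 to 333, 304 and 297, a log2 change of -0.74 ± 0.15 (adjusted p = 0.000153). In SCC6 and SCC25 it stayed at 820 to 848 and 416 to 466, with changes of -0.01 ± 0.06 and 0.05 ± 0.09. Within GC bins the SCC1 change was -0.63 with an adjusted p of 0.0694.

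Another lay in an exon of PVT1, at chr8:128866230-128867095, 119 kb downstream of the MYC start. It was among the 3 highest of SCC1 (595 and 454) and SCC25 (312, 275 and 307), and SCC6 had 472, 449 and 382. It rose in SCC6 to 618, 613 and 641, by 0.53 ± 0.08 (adjusted p = 6.5e-07), and fell in SCC1 to 395, 333 and 421, by -0.45 ± 0.15 (adjusted p = 0.0302). The SCC1 call was lost under 9 of 13 other settings. The highest distal members of SCC6 with PBS lay toward the far end, at chr8:130719870-130720667, with 1075, 980 and 1075, and at chr8:131054221-131054989, with 1080, 1049 and 1062, where SCC1 had 416 to 491 and SCC25 182 to 279.

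Some distal members had far more signal in one line. At chr8:128323862-128324468, in an intron of CASC8 and an exon of PCAT1, the SCC1 PBS libraries had 142 and 152, and the PBS libraries of the other lines had 3.26 to 10.0. Peaks were nevertheless called over it in 5 SCC1, 2 SCC6 and 5 SCC25 libraries. At chr8:128064922-128065163 SCC1 had 71.6 and 53.6 with PBS, against 0.848 to 9.67 in the PBS libraries of the other lines. In SCC6, members at chr8:126159991-126160190 (91.8, 68.9 and 62.0), chr8:130240874-130241074 (49.5 to 66.5) and chr8:130853800-130854000 (44.7, 44.2 and 43.5) faced PBS libraries of SCC1 and SCC25 at no more than 5.58. In SCC25 PBS libraries, the region at chr8:126349434-126349840, in an intron of NSMCE2, had 105, 88.7 and 102 and that at chr8:129286073-129286715 had 119, 95.2 and 92.5. Both had at most 7.36 in the PBS libraries of the other lines.

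In SCC1 cetuximab lowered accessibility at many distal members. Of 370 tested, 73 were lower and 4 higher, against 7.69% and 2.57% of all distal regions, and the median log2 change was -0.42, against -0.18. In the 5.5 Mb before and the 5.5 Mb after the segment the SCC1 distal medians were -0.35 and -0.37. The median fall was therefore not particular to the segment. With start sites included, 74 of 398 members were lower and 4 higher, against 6.56% and 4.57% of all regions. The 74 lower members had log2 changes from -2.76 to -0.45 and a median of -1.06. Their treated libraries lay wholly below the PBS libraries. The call itself favours this with 3 libraries against 2, so it is no further support. The interval of MYC and PVT1 held 14 lower of 40 tested, that of TRIB1 to MYC 33 of 142, PVT1 to GSDMC 11 of 85, GSDMC to ASAP1 11 of 64 and SQLE to TRIB1 4 of 39, all distal. Median centring shifted the all-region median change from -0.09 to 0.11 and gave 46 lower and 11 higher (4.09% and 8.41% of all regions), centring within GC bins gave 26 and 2 (2.38% and 0.635%), and with either SCC1 PBS library left out 25 were lower, since 1 such library then remained.

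The most certain fall lay in an intron of CCDC26, 1.05 Mb downstream of MYC, at chr8:129799876-129800296. It had 347 and 305 in SCC1 PBS and 73.6, 81.8 and 50.1 after cetuximab, a log2 change of -2.26 ± 0.23 (adjusted p = 4.1e-16). In SCC6 it went from 343, 324 and 283 to 243, 215 and 224, by -0.47 ± 0.10 (adjusted p = 0.000405). In SCC25 it went from 159, 133 and 142 to 80.1, 97.7 and 92.1, by -0.68 ± 0.16 (adjusted p = 0.0575 in limma). The SCC25 fall was called under 5 of 14 other settings, with edgeR (adjusted p = 0.0243) but not with DESeq2 (adjusted p = 0.0725). Treated and PBS libraries did not overlap in any of the 3 lines. CCDC26 held 56 distal members. Of the 50 tested in SCC1, 3 were lower, no more than the share of all distal regions (7.69%), and 0 were higher (2.57%). The other 2 lower ones, of which the former was chosen after its values were seen, lay at chr8:129678233-129678648 (189 and 156 to 47.0, 66.2 and 65.7) and chr8:129822165-129822679 (70.3 and 111 to 20.3, 27.3 and 11.0).

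PVT1 held more. Of its 39 distal members 38 were tested in SCC1, and 13 were lower and 2 higher, against 7.69% and 2.57% of all distal regions. The mean signals summed over all 39 went from 5215 to 3714. At chr8:128943949-128944293 the signal fell from 141 and 133 to 16.5, 29.2 and 23.5, by -2.55 ± 0.34 (adjusted p = 5.2e-10). SCC6 and SCC25 had 7.25 to 28.3 there with either treatment, below both SCC1 PBS libraries. At chr8:128981672-128982474 the SCC1 libraries went from 249 and 190 to 58.4, 56.4 and 93.9 (-1.67 ± 0.25, adjusted p = 2.4e-08), while SCC6 had 88.1 to 122 and SCC25 93.9 to 132.

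Of the 4 members that rose in SCC1, 3 had PBS signals below the SCC1 median of distal members, 30.2. In PVT1 introns, chr8:128885334-128885477 went from 7.81 and 8.93 to 64.7, 37.0 and 50.1 (2.43 ± 0.46, adjusted p = 2.5e-05) and chr8:128964406-128964751 from 10.4 and 8.93 to 53.3, 44.8 and 42.3 (2.16 ± 0.45, adjusted p = 0.000193). The latter also rose in SCC6, from 14.5, 16.1 and 23.9 to 119, 122 and 118, by 2.69 ± 0.24 (adjusted p = 2.2e-12). In an intron of PCAT1, chr8:127640880-127641378 rose in SCC1 from 15.6 and 7.82 to 20.3, 38.9 and 56.3 (1.59 ± 0.48, adjusted p = 0.0153 in limma). That SCC1 call was lost under 3 of 13 other settings. In SCC6 this member rose from 24.2, 18.7 and 23.9 to 109, 106 and 98.5. Neither it nor chr8:128964406-128964751 had a called peak in any SCC1 library. The fourth, at chr8:131041569-131041941 between genes, had 45.5 and 55.8 with PBS and 91.4, 99.3 and 90.8 with cetuximab in SCC1, and rose in SCC6 as well, from at most 77.3 to 325, 350 and 305.

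**Figure D3:**
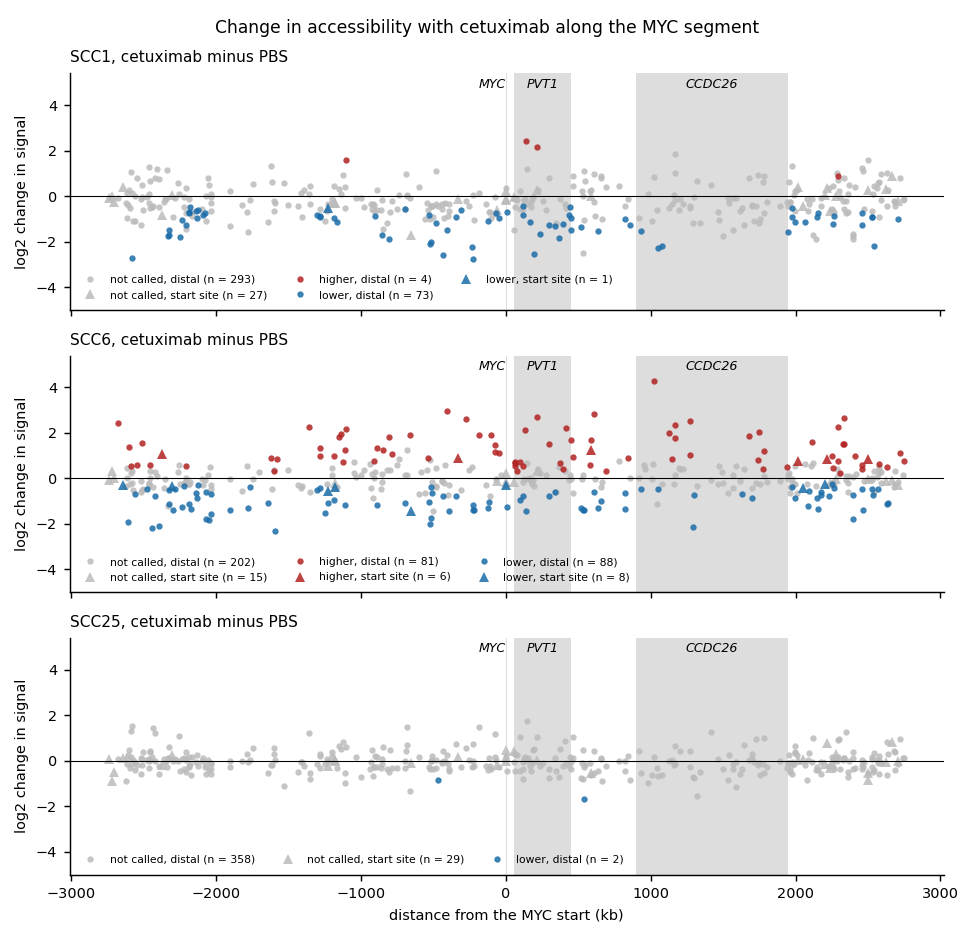
Log2 change in deposited signal with cetuximab at each member tested, against the distance from the MYC start in kb, in SCC1, SCC6 and SCC25. Red marks members higher and blue members lower at an adjusted p under 0.05, circles are distal and triangles start site members. SCC1 shows 74 lower and 4 higher, SCC6 96 lower and 87 higher in mixed order along the segment, and SCC25 2 lower.

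SCC6 changed in both directions. Of 371 distal members tested 81 were higher and 88 lower, against 19.8% and 10.4% of all distal regions, and the median log2 change was -0.05, against 0.23. The SCC6 distal medians were 0.14 in the 5.5 Mb before the segment and -0.02 in the 5.5 Mb after it. Over all 400 tested, 87 were higher and 96 lower, against 16.9% and 10.6%. The changes of the higher members ran from 0.24 to 4.30 and of the lower from -2.30 to -0.23. Centring on the library median, which moved the median of all regions from 0.11 to -0.07, gave 66 higher and 150 lower (11.8% and 19.1% of all regions), and centring within GC bins gave 86 and 84 (15.3% and 7.99%). Higher and lower members lay side by side, with 13 and 6 of 38 in the MYC and PVT1 interval, 27 and 39 of 144 before it and 19 and 16 of 83 after it.

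The largest rises in SCC6 by certainty lay between TRIB1 and MYC and in PVT1. The region at chr8:127386973-127388099, between genes and 1.36 Mb upstream of MYC, went from 146, 147 and 175 to 800, 729 and 733, by 2.27 ± 0.09 (adjusted p = 1.0e-24). SCC1 stayed at 12.5 to 35.0 there, and SCC25 had 26.4, 26.0 and 11.0 with PBS and 59.1, 64.5 and 28.3 with cetuximab. That SCC25 change of 1.23 ± 0.34 did not pass the limma test (adjusted p = 0.115). It was called under 4 of 14 other settings, edgeR (adjusted p = 0.00346) and DESeq2 (adjusted p = 0.0376) among them. In an intron of PCAT1, chr8:127591683-127592695 went from 275, 310 and 261 to 1032, 981 and 982 (1.82 ± 0.08, adjusted p = 1.6e-24). In SCC25 that member went from 137, 125 and 105 to 215, 229 and 142 (0.65 ± 0.17, adjusted p = 0.0828 in limma). The SCC25 rise was called under 5 of 14 other settings, edgeR (adjusted p = 0.000464) and DESeq2 (adjusted p = 0.00437) among them. At the end of PVT1, chr8:129196789-129197417 went from 145, 130 and 152 to 504, 438 and 464 (1.71 ± 0.10, adjusted p = 5.4e-18).

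The leading falls in SCC6 were in introns of genes. In ASAP1, chr8:131143855-131144538 went from 246, 280 and 282 to 68.7, 78.0 and 82.7 (-1.80 ± 0.14, adjusted p = 1.3e-14). In CYRIB, chr8:130898988-130899572 went from 454, 389 and 429 to 187, 168 and 148 (-1.34 ± 0.11, adjusted p = 3.5e-14). In PCAT1, 700 kb upstream of MYC, chr8:128047814-128048382 went from 499, 428 and 438 to 225, 203 and 211 (-1.09 ± 0.10, adjusted p = 1.2e-12). This last member was the highest distal one of SCC1, and fell there too, from 578 and 594 to 404, 415 and 355 (-0.58 ± 0.15, adjusted p = 0.00201). That SCC1 call was lost under 4 of 13 other settings, with -0.38 (adjusted p = 0.0748) after median centring. Each of these 6 SCC6 changes was called under all 14 other settings.

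**Figure D4:**
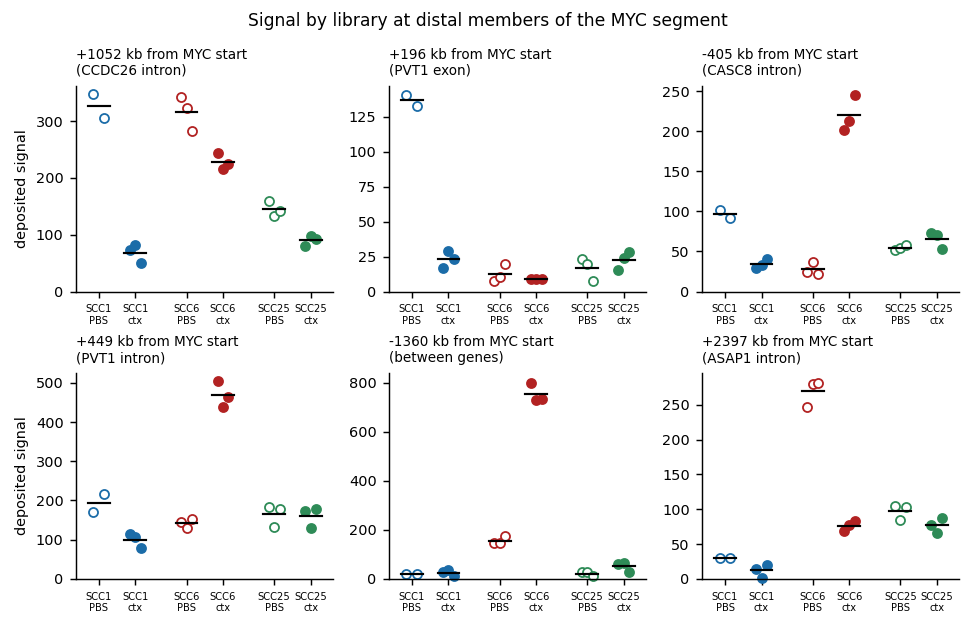
Deposited signal in each library at 6 distal members, named by their distance from the MYC start, with PBS libraries open, cetuximab libraries (ctx) filled and group means as bars. The CCDC26 element has its treated libraries below the PBS libraries in each line, though the SCC25 change did not pass the test (adjusted p = 0.0575 in limma), and the CASC8 and PVT1 intron elements fall in SCC1 while they rise in SCC6.

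In SCC25 2 of 389 members were lower and 0 higher, against 0.275% and 0.0405% of all regions. The edgeR test on recovered reads gave 5 lower and 3 higher, against 0.685% and 0.437% of all regions. DESeq2 gave 2 and 2, against 0.190% and 0.117%. Of the 2 limma calls, the first lay in an intron of PCAT1, at chr8:128277774-128278270. It went from 152, 146 and 134 to 83.0, 80.1 and 79.7 (-0.82 ± 0.16, adjusted p = 0.0248). The other, chr8:129289763-129290144, went from 40.7, 53.4 and 39.0 to 19.7, 10.4 and 10.6 (-1.68 ± 0.33, adjusted p = 0.0277). Neither was called with any 1 of the 3 SCC25 PBS libraries left out. At an unadjusted p under 0.05 in limma, 18 of 360 distal members tested were higher and 39 lower. The share of all distal regions at that threshold is not given here, so nothing is read from these counts.

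The response differed between lines at 98 of 392 members (93 of them distal) when the dependence of the treatment effect on line was tested with a limma F-test, against 13.2% of all regions. The smallest adjusted p, 3.1e-09, was at chr8:128342338-128342960, in introns of CASC8 and PCAT1 and 405 kb upstream of MYC. It fell in SCC1 from 101 and 91.6 to 29.2, 33.1 and 40.7 (-1.48 ± 0.33, adjusted p = 0.000421), rose in SCC6 from 24.2, 36.8 and 21.8 to 201, 213 and 246 (2.98 ± 0.20, adjusted p = 1.2e-16), and had 52.4 to 73.1 in SCC25 with either treatment. The PVT1 element at chr8:129196789-129197417 followed (adjusted p = 1.1e-07 in limma), with 170 and 217 to 116, 107 and 78.2 in SCC1 (-0.95 ± 0.23, adjusted p = 0.00154). The third was chr8:131074142-131074942, in an intron of ASAP1, which rose in SCC6 from 255, 194 and 207 to 557, 678 and 628 and had 261 to 331 in SCC1 and 163 to 217 in SCC25 (adjusted p = 5.2e-07 in limma).

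Of 380 members tested in both SCC1 and SCC6, 45 were called in both, 57.7% of the 78 SCC1 calls and 25.3% of the 178 SCC6 calls. Over all regions 3068 were called in both, 36.5% of the SCC1 and 15.02% of the SCC6 calls, of which 1493 were lower in both, 825 higher in both, 434 lower in SCC1 and higher in SCC6 and 316 the reverse. Among the 45 members, in 33 the signal was lower in both lines and in 3 higher in both. The signal was lower in SCC1 and higher in SCC6 at 8, and the reverse at 1.

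The share of the signal in the segment, read without a test because it sums over the chosen members, was lower after cetuximab in SCC1, with 0.553% ± 0.0189 (SD, n = 3) against 0.715% ± 0.0105 (n = 2). In SCC6 it was 1.00% ± 0.0121 against 1.04% ± 0.0119 (n = 3 each) and in SCC25 0.488% ± 0.0122 against 0.494% ± 0.00369. The SCC1 libraries did not overlap, nor did those of SCC6, whereas those of SCC25 did. With distal members alone the SCC6 libraries overlapped, at 0.826% to 0.842% with cetuximab and 0.838% to 0.860% with PBS.

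**Figure D5:**
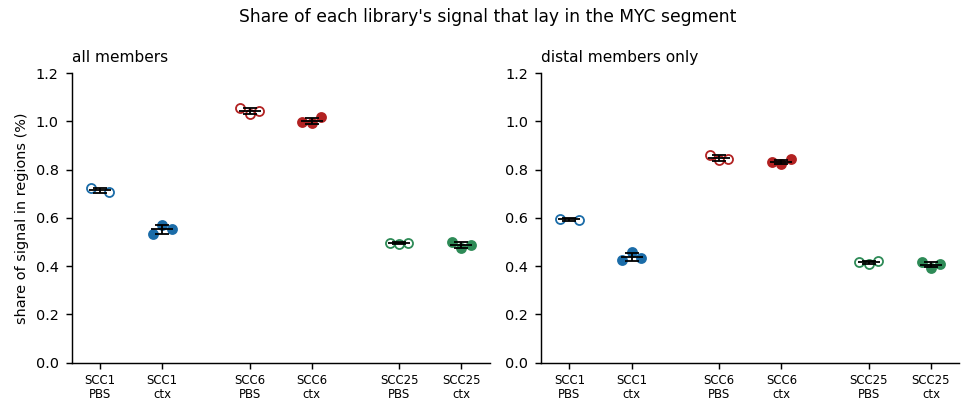
Share in percent of each library's signal in regions that lay in the segment, for all members and for distal members, with PBS libraries open, cetuximab libraries (ctx) filled and mean ± SD as bars. SCC6 lies near 1.0%, and SCC1 drops from 0.707 to 0.722% to between 0.534 and 0.572%.

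Short letter motifs were counted on both strands of the hg19 sequence of each region. The AP-1 letters TGACTCA or TGAGTCA were held by 34.9% of distal members and 29.0% of all distal regions. Among members lower after cetuximab 60.3% held them in SCC1 (44 of 73) and 58.0% in SCC6 (51 of 88), against 31.7% and 29.7% of members tested and not called. Members higher in SCC6 held them in 29.6%. The TEAD letters GGAATG were held by 42.0% of the members higher in SCC6 and 27.3% of those lower, with 30.7% of members not called and 23.6% of all distal regions. In SCC1 they were held by 37.0% of the lower members and 30.4% of those not called. The E-box letters CACGTG were in 3.04% of distal members and 3.45% of all distal regions. Among lower members they were in 5.48% in SCC1 (4 of 73) and 6.82% in SCC6 (6 of 88), against 2.73% and 1.98% of those not called. The sets differed in width, and wider regions hold any letters more often. Medians were 432 bp for the members lower in SCC1, 329 bp for those lower in SCC6 and 362 bp for those higher in SCC6. They were 302 and 273 bp for members not called in SCC1 and SCC6 and 232 bp for all distal regions. A match is a description of the sequence and no sign that a factor was bound.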

How the data were processed

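The authors trimmed reads with Trim Galore (0.5.0), aligned them to hg19 with Bowtie2 (2.3.2), used Picard (2.18) to drop duplicates and mitochondrial reads and SAMtools (1.9) to drop those of low quality, called peaks with MACS2 and compared sites with DiffBind, whose versions are not given in the sources used here. The deposited table gives each region a normalised signal per library. Dividing it by 1 step per library gave whole reads for 100% of values (tolerance 0.001). The deposited peak lists give each peak a score, a fold enrichment (a ratio) and −log10 p and q, as the authors obtained them from MACS2.

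Members and lists were chosen with earlier results of these data known. Log2(signal + 1) was tested with limma (3.58.1, R 4.3.3) within each line, over PBS libraries, or over all libraries for the dependence on line, after the 25% of regions of lowest mean signal had been left out. Of the 424 members, 398 were tested in SCC1, 400 in SCC6, 389 in SCC25, 391 between PBS libraries and 392 over all libraries. Calls had a Benjamini-Hochberg adjusted p under 0.05 over all regions tested. edgeR (4.0.16) on the recovered reads called 8 members higher and 71 lower in SCC1, against 6.20% and 6.60% of all regions. It called 85 and 114 in SCC6 (15.3% and 13.4%) and 3 and 5 in SCC25 (0.437% and 0.685%). DESeq2 (1.42.0) called 4 and 40 in SCC1 (3.66% and 2.91%), 64 and 106 in SCC6 (10.8% and 11.0%) and 2 and 2 in SCC25 (0.117% and 0.190%). The scripts were tested on simulated data. No p is given for the segment's share of signal, which sums over chosen members, although an exact test had been planned.

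Named members were the strongest start site member of each of 18 fixed genes, of which CCAT1 was not in the annotation, and the 3 with the smallest p for dependence on line. Further ones were, per line, up to 3 distal members per direction with the smallest adjusted p among calls without overlap, the 3 of highest PBS signal and the 3 of largest excess over the other lines. Other MYC start site members were added. SCC1 PBS replicate 2 was not analysed here.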

Additional observations from a re-analysis of the deposited data

Results flagged for a closer look

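The effect of cetuximab depended on the line at 98 members by limma's F-test with 2 numerator degrees of freedom, and those among the named members are given here with their adjusted p. Among start sites these were TRIB1 (0.00419) and CCAT2 (0.000778).

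Between TRIB1 and MYC they were the distal members at chr8:127386973-127388099 (0.00736), chr8:127591683-127592695 (3.3e-05), chr8:128047814-128048382 (0.00332), chr8:128342338-128342960 (3.1e-09) and chr8:128680273-128681463 (5.5e-05). In PVT1 they were chr8:128866230-128867095 (0.00141), chr8:128885334-128885477 (0.00133), chr8:128943949-128944293 (0.00333), chr8:128981672-128982474 (9.1e-05) and chr8:129196789-129197417 (1.1e-07).

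Downstream of PVT1 they were chr8:129289763-129290144 (0.00480), the CCDC26 element at chr8:129799876-129800296 (1.2e-05), chr8:130898988-130899572 in CYRIB (0.0138), chr8:131054221-131054989 (0.0100) and chr8:131074142-131074942 in ASAP1 (5.2e-07).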

How the results depend on the processing

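Counts of members called moved most often in SCC25 and SCC1. In SCC1, higher members numbered 11 with median centring, 7 with quantile normalization, 2 with centring within GC bins and 8 with edgeR. Lower members numbered 46 with median centring, 26 within GC bins and 40 with DESeq2, and 25 to 80 with 1 library left out. In SCC6, median centring gave 150 lower. In SCC25, higher members numbered 1 with median centring, 3 with edgeR, 2 with DESeq2 and 0 to 2 with 1 library left out, and lower members 0 with median centring, 4 with a pseudocount of 5, 5 with edgeR and 0 to 4 with 1 library left out. PBS libraries were also centred on their median over the distal members, which removes the line difference of the segment by construction. This gave 132 higher and 125 lower in SCC6 than SCC1, against 20.8% and 52.2% of all regions. It gave 110 higher in SCC25 than SCC6, against 56.8%. Nothing is read from the counts with this centring. The cause of the other shifts was not tested.

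A replicate block gave 2 higher and 6 lower in SCC25, against 0.125% and 0.737% of all regions. It gave 5 and 80 in SCC1 (6.76% and 7.66%) and 87 and 98 in SCC6 (17.8% and 10.9%). Deviations of same-numbered libraries from their group means correlated at -0.042 to 0.0265 over 8 pairs, with no sign of pairing by replicate number. They are taken within groups of 2 or 3 libraries, so a shared batch is not excluded.

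Some log2 differences changed sign. Within GC bins, the SCC6 changes were 0.024 at NSMCE2, 0.011 at TRIB1 and 0.072 at CYRIB. In the same setting SCC6 minus SCC1 was 0.0089 at WASHC5, -0.15 at GSDMC and 0.18 at chr8:127591683-127592695, and SCC25 minus SCC1 was 0.16 at SQLE, 0.19 at NSMCE2, 0.043 at TRIB1, 0.13 at PCAT1, 0.44 at CYRIB and 0.030 at chr8:128680273-128681463. Centred on the distal members, SCC6 minus SCC1 was -0.16 at MYC, -0.26 at its upstream member, -0.36 at chr8:126568471-126569760 (-0.0061 with median centring) and -0.00049 at chr8:128680273-128681463. In that setting SCC25 minus SCC6 was 0.42 at WASHC5, 0.27 at PCAT1 and 0.21 at chr8:128866230-128867095. Centring on the distal members removes the segment's own line difference, so members with a smaller difference change sign by construction. Nothing is read from those sign changes.

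With distal members alone the SCC6 share of signal differed by -0.0144 percentage points, against -0.0409 with all members, and the libraries overlapped. With peaks of −log10 q of 5 or more the shares of peaks were 0.629% in SCC1, 0.548% in SCC6 and 0.440% in SCC25, and with 50% of the peak inside a member the SCC1 share was 0.508%. Reads in regions ranged from 2194851 to 15017130, and the part of depth in the calls was not tested.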
